A study of Drosophila melanogaster with 3 samples.

Results

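Distal intergenic peaks of acj6, those that lay between genes and far from any promoter, numbered 922 in the dm6 list past the threshold of the irreproducible discovery rate (the IDR list), and the other peaks of that list 7326. The members were thus 11.2% of the list (exact binomial 95% interval 10.5% to 11.9%, counting error only). The study mapped where acj6 tagged at its C-terminus with GFP sits on chromatin, by chromatin immunoprecipitation with an antibody against GFP and sequencing (ChIP-seq). The animals were whole Drosophila melanogaster white prepupae, males and females together, of a transgenic line that stably expresses the tagged protein, so the genome carries added copies of acj6. There was 1 group of 3 biological replicates, for which the labels do not say whether they came from separate cultures, and chromatin was sheared to fragments of 200 to 800 bp. A distal intergenic peak had its summit outside the body of every protein-coding gene, more than 5000 bp from the nearest protein-coding transcription start site (TSS), and with no start of a non-coding RNA gene within 500 bp. Of all summits in the list, 3268 lay outside coding genes, 978 of these were more than 5000 bp from a coding TSS, and 56 of those were left out for a non-coding RNA start. The same rule kept 860, 935 and 882 of the strongest regions of replicates 1, 2 and 3, taking as many as the IDR list holds, or 10.8% ± 0.467 (SD, n = 3). Just inside the limit were summits at 5005 bp from CG8117 and 5005 bp from CG42852, with signals of 134 and 131. Just outside it were summits at 4998 bp from CG4004 and 4991 bp from CG13481, with signals of 2043 and 319.5.

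acj6 is a class IV POU-homeodomain factor, which pairs a POU-specific domain with a homeodomain and binds AT-rich DNA. In the fly it is best known for the choice of odorant receptor genes and the wiring of olfactory neurons. Transcription factors bind promoters and also enhancers, stretches of regulatory DNA that can lie between genes at some distance from the gene they act on. Whole prepupae mix many tissues, so a peak gives no information on the cells it came from. Nearest genes below are named by position only.

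The sequences of a few of the strongest distal intergenic peaks show what an AT-rich summit of this set looks like. The first 3 were found in all 3 replicates and are among the strongest members (the strongest of all, near CG13323, is described further on and not printed), with 100 bases on each side of the summit (plus strand, dm6, RefSeq Release 6 sequence). Capitals mark TCTCAGTG or CAGTGTA on either strand.
Paics member, chrX:12754431-12754631: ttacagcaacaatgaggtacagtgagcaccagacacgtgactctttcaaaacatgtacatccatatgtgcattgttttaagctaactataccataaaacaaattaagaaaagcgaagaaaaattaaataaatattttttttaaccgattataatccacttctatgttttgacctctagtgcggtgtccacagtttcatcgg
Ids member, chr3L:3394939-3395139: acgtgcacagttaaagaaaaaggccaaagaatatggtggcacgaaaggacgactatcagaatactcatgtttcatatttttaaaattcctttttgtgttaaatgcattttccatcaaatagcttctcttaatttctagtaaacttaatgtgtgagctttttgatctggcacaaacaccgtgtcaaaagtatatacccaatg
heca member, chr3R:30272617-30272817: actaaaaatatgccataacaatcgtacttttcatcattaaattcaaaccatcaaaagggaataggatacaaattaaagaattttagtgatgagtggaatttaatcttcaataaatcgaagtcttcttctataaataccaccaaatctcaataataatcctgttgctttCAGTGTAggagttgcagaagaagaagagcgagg
The GC content of these windows was 33.8%, 33.8% and 31.3%. The Paics and Ids windows hold neither element, and the heca window holds CAGTGTA at 71 bp to the right of the summit.

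The second set holds 3 of the strongest members with TCTCAGTG within 100 bp of the summit, an 8-mer that the results below turn on. Capitals have the same meaning.
CheA75a member, chr3L:18235935-18236135: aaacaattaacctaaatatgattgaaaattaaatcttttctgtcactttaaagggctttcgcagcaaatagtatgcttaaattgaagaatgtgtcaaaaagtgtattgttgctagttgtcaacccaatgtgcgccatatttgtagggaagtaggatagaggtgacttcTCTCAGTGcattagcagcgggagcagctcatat
CG31797 member, chr2L:19226426-19226626: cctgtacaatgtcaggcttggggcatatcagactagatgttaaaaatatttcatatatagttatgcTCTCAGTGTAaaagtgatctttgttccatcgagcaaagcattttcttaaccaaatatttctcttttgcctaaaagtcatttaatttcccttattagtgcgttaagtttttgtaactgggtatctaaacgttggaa
Or67d member, chr3L:10328753-10328953: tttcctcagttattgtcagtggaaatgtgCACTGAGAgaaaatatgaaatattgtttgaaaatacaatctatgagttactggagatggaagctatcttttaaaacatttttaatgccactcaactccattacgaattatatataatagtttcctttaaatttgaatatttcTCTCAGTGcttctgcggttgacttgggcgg
In the CheA75a member the 8-mer lies 72 bp to the right of the summit on the plus strand. The Or67d member, in a lncRNA gene body and 55649 bp from the TSS of Or67d, holds it on both sides: as its reverse complement CACTGAGA at 67 bp to the left and as TCTCAGTG at 75 bp to the right. The CG31797 member is the exception among these 3, with the 8-mer running on into CAGTGTA on the plus strand at 30 bp to the left of the summit.

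TCTCAGTG and CAGTGTA pointed away from the summits of the members almost without exception. Between 30 and 130 bp from the summits, TCTCAGTG was found 54 times on the plus strand to the right and 42 times on the minus strand to the left, but 2 times on the plus strand to the left and 0 times on the minus strand to the right. Read outward from the summit, that is 96 of 98 matches (98%), against 77 of 78, 86 of 90 and 80 of 81 among the members of replicates 1, 2 and 3 (97.7% ± 1.84, SD, n = 3). CAGTGTA read outward in 117 of 121 matches (96.7%), and in 93.8%, 96.4% and 96.2% in the replicates. All 3 replicates lay on the same side of an even split for both elements (two-sided exact sign-flip permutation p = 0.25 for each, the smallest that 3 replicates can give). The replicate lists largely share the same regions, as each covers 83.9% to 88.5% of the members. Their agreement on sequence is thus in part set by that overlap. The orientation was examined after the 6-mers described below were seen.

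The direction differed with the letters around the shared core. The core CAGTG read outward in 65.6% of 808 matches, while ACAGTG, which shares it, read outward in 28% of 211 matches and thus mostly inward. TCAGTC and TCAGTT, which differ from the core at its end, showed no such split, with 24 of 51 and 60 of 127 matches outward. TATAAA, an AT-rich element that is common at these summits, read outward in 47.8% of 456 matches. At 300 to 400 bp from the summits TCTCAGTG was rare, and still read mostly outward, in 5 of 7 matches and in 5 of 5, 6 of 8 and 7 of 8 in replicates 1, 2 and 3. CAGTGTA read outward there in 8 of 14, and in 6 of 10, 6 of 12 and 4 of 13 in the replicates. These counts are too small to compare the distances for the 8-mer. TCAGT overlaps the letters of the initiator, a fly core promoter element at the TSS. By the rule every member lies more than 5000 bp from any coding TSS. TCAGTC and TCAGTT hold TCAGT as well and so overlap those letters too. A link to initiators was not tested.

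**Figure D1:**
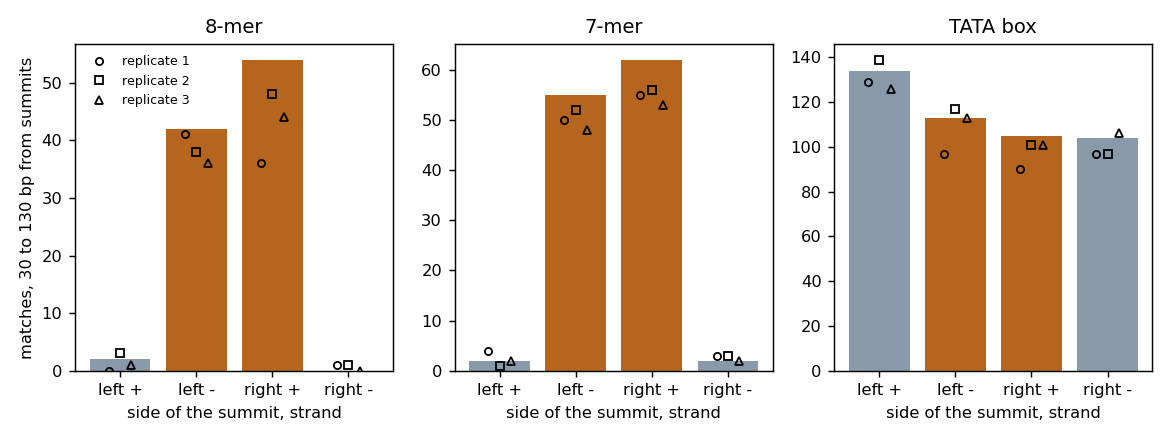
Number of matches 30 to 130 bp from the summits of the members, by side of the summit and strand, for the 8-mer TCTCAGTG, the 7-mer CAGTGTA and the TATA box. Bars are the IDR list and points the 3 replicates, and the brown bars (left minus and right plus) read outward. The 8-mer has 96 of 98 matches in the brown bars, the 7-mer 117 of 121 and the TATA box 218 of 456.

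The outward elements were not limited to the members, but were more frequent among them than in the other peaks as a whole in each replicate. Of the 922 members, 173 (18.8%, exact binomial 95% interval 16.3% to 21.4%) had TCTCAGTG or CAGTGTA reading outward at 30 to 130 bp, 24 of them on both sides. Among the other IDR peaks the share was 11.1% (813 of 7326). In replicates 1, 2 and 3 it was 17.8%, 17.2% and 17% of members and 9.77%, 11% and 10.3% of the other peaks, a difference of 6.98 percentage points ± 0.936 (SD, n = 3; two-sided exact sign-flip permutation p = 0.25). The replicate values of members and other peaks did not overlap. Peaks inside coding genes but more than 5000 bp from a coding TSS were close to the members, with 16.5% (14.7% to 18.5%). Other intergenic peaks over 500 and up to 5000 bp from a coding TSS had 14.8% (12.5% to 17.4%). Both intervals overlap that of the members. Peaks within 500 bp of a coding TSS were lowest of these parts, with 5.46% (4.59% to 6.43%). These 2455 are among the other peaks, so the difference above depends in part on them. The directions themselves were not particular to the members. In the other IDR peaks TCTCAGTG read outward in 348 of 369 matches and CAGTGTA in 610 of 679. ACAGTG read outward there in 461 of 1807 matches, and thus mostly inward. Within the members the share was 21.7% in the 461 stronger ones and 15.8% in the 461 weaker ones, whose intervals (18% to 25.7% and 12.6% to 19.5%) overlap.

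The members' summits were AT-rich dips between GC-rich shoulders. GC content averaged 33.7% within 100 bp of the summit and 40.9% in equally wide flanks placed 1 kb downstream on the plus strand, a difference of -7.21 percentage points. The replicates gave -7.17 ± 0.0539 (SD, n = 3; two-sided exact sign-flip permutation p = 0.25). Within 49 bp of the summit the GC content was 30.9%, and at 200 to 399 bp it reached 47.1%, above the 41.2% of the stretches of genome that meet the rule without annotated transposable elements. Other IDR peaks had 31.9% and 44.7% at the same distances. At 200 to 399 bp the members had 47.1% ± 0.0452 and the other peaks 44.6% ± 0.156 over the replicates (SD, n = 3), a difference of 2.52 points ± 0.139 that was positive in 3 of 3 (two-sided exact sign-flip permutation p = 0.25). Over the whole window members and other peaks differed by -0.302 points, with -0.803, 0.0919 and -0.133 in the replicates, so that no direction held.

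CAGTG stood on the slopes of the dip and not at its bottom. Counted on both strands, it occurred 1.69 times per kb within 29 bp of the members' summits, 3.24 at 30 to 59 bp, 4.93 at 60 to 119 bp, 2.87 at 120 to 199 bp and 1.99 at 200 to 499 bp. The density at 60 to 119 bp was 4.51, 4.63 and 4.72 per kb in the replicates and 4.12 in the other IDR peaks. Over the stretches that meet the rule without annotated transposable elements it was 1.66 per kb.

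**Figure D2:**
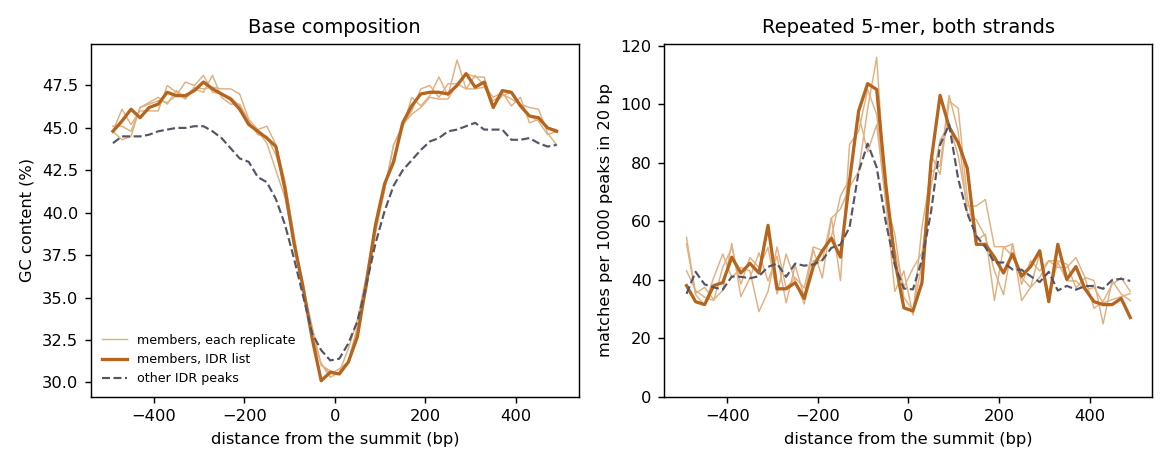
Left, GC content in percent against distance from the summit in bp, in steps of 20 bp. Right, matches of CAGTG on both strands per 1000 peaks in the same steps. Thick brown lines are the 922 members, thin lines the members of each replicate and dashed lines the other IDR peaks. GC content falls to 30.9% within 49 bp of the members' summits, and the matches form a peak on each side of it.

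The 6-mers with the highest ratio of summit to flank windows came in part from the same words. Of 2080 6-mers, these were ACACTG (17.8% of members against 5.97% of flanks), AGTGTA (20% against 6.83%), CTACAC (8.79% against 3.04%), ACAGTG (15.2% against 5.42%) and CACTGA (20.7% against 8.46%). On either strand, ACACTG and AGTGTA are parts of CAGTGTA and CACTGA is part of TCTCAGTG, while ACAGTG holds only the core and CTACAC not even that. CACTGA was also more frequent in members than in other peaks, by 5.42 points ± 1.39 over the replicates (SD, n = 3), and ACAGTG less frequent (-2.56 points ± 0.476). Both held their direction in 3 of 3 replicates. Because they were picked at the members' summits, the comparison with other peaks is not independent of that choice. The same holds for TCTCAGTG. TCTCAGTG, counted on both strands within 100 bp of the summit, was in 7.48% of members, 0.976% of flanks and 4.05% of other peaks, against 0.698% of windows of that width tiled over the stretches that meet the rule without annotated transposable elements. The 3 6-mers with the lowest ratio were CG-rich: AGCGCG (0.868% against 4.77%), CCGGGA (0.434% against 3.15%) and CCCCGG (0.542% against 4.34%).

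The motifs of acj6's own family differed little between the members' summits and flanks, and for the class IV POU core the size depended on the flank. TAATTAAT, the core of the class IV POU site, was in 4.45% of member summits and 4.12% of their flanks, and the difference was 0.144 points ± 0.23 over the replicates (SD, n = 3), below the spread. With flanks 1 kb to the left, which held it in 3.04%, the difference in the IDR list was 1.41 points. TAATTAAT was in 4.61% of other peaks, 2.81% of the flanks of those peaks and 3.28% of the same tiled windows. The POU octamer ATGCAAAT was in 2.93% of summits and 3.8% of flanks, and was less frequent at the summit in 3 of 3 replicates (-1.57 points ± 0.603). TAATTA, the core of many homeodomain sites, was in 16.5% of summits and 15.3% of flanks (1.4 points ± 0.676 over the replicates). Other peaks held it in 18.7% of summits and 13.4% of flanks. These are matches to letters on both strands within 100 bp of a summit and say nothing of what the factor bound.

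Promoter elements, apart from AT-rich words, were scarcer at members than at other peaks. The rule keeps members over 5000 bp from any coding TSS, while 2455 of the other peaks lie within 500 bp of one. The comparison is thus set in part by the rule. TATCGATA, the element of the promoter factor DREF and of the insulator protein BEAF-32, was in 1 member (0.108%) against 1.97% of other peaks, a difference of -2.13 points ± 0.121 over the replicates. It was in 0.542% of flanks and 0.4% of the tiled windows. GGTCACACT, bound by the promoter factor M1BP, was in 2 members (0.217%) against 0.819% of other peaks, 0% of flanks and 0.106% of the tiled windows. TATAAA was in 40.6% of member summits, 26.2% of flanks and 39.1% of other peaks, and runs of 8 A in 16.9%, 11.2% and 18.1%. GCCAT, the core of the site of the Polycomb recruiter Pleiohomeotic, was in 26.7% of summits, 35.9% of flanks and 23.7% of other peaks. None of the 19 motifs could pass the threshold, since the smallest p of 0.25 gave a smallest Benjamini and Hochberg adjusted p of 0.279 in this exact sign-flip permutation test of summit against flank.

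The members were found in the replicates about as often as the rest of the list. One of the strongest regions of a replicate, again as many as in the IDR list, covered at least 50% of the peak in replicate 1 for 83.9% of members, in replicate 2 for 88.5% and in replicate 3 for 87.7%. All 3 replicates held 634 members (68.8%, interval 65.7% to 71.7%), against a background of 70.6% over all IDR peaks and 70.8% of the other peaks. A further 212 members were found in exactly 2 replicates, 73 in 1 and 3 in 0. Not found, here and below, means that no region among the strongest covered at least 50% of the peak. When all regions of each replicate were used, 890 members were covered in all 3. The IDR list is identical to the strongest regions of the list from pooled replicates, so a single peak may be weak in any 1 replicate. Ranks within the replicate lists followed each other less closely for members (Spearman's rho 0.759 to 0.771 over 898 to 901 members) than for other peaks (0.817 to 0.826). These correlations are across peaks that share libraries and carry no test.

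Members were scarce among the strongest peaks. The signal value of the authors' caller had a median of 164 in members (quartiles 121 and 257, range 94.2 to 3331) and 184 in other peaks. The median rank was 4619.5 for members and 4050.5 for the others, where rank 1 is the strongest. Members ranked 484, 577 and 709.5 places lower in replicates 1, 2 and 3 (two-sided exact sign-flip permutation p = 0.25). They made up 2 of the top 100 peaks (2%), 5.66% of the following ranks up to 825, 8.57% of ranks 826 to 2062 and 12% to 12.9% of the later bins. In the top 100 of the replicates there were 3, 3 and 2. Other peaks away from a coding TSS had similar median ranks in the IDR list. The median rank was 4818 for other intergenic peaks over 500 and up to 5000 bp from a coding TSS. It was 4552 for peaks inside coding genes but more than 5000 bp from a coding TSS. Peaks within 500 bp of a coding TSS had a median rank of 3428. Whether these groups were also scarce in the top 100 was not tested.

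**Figure D3:**
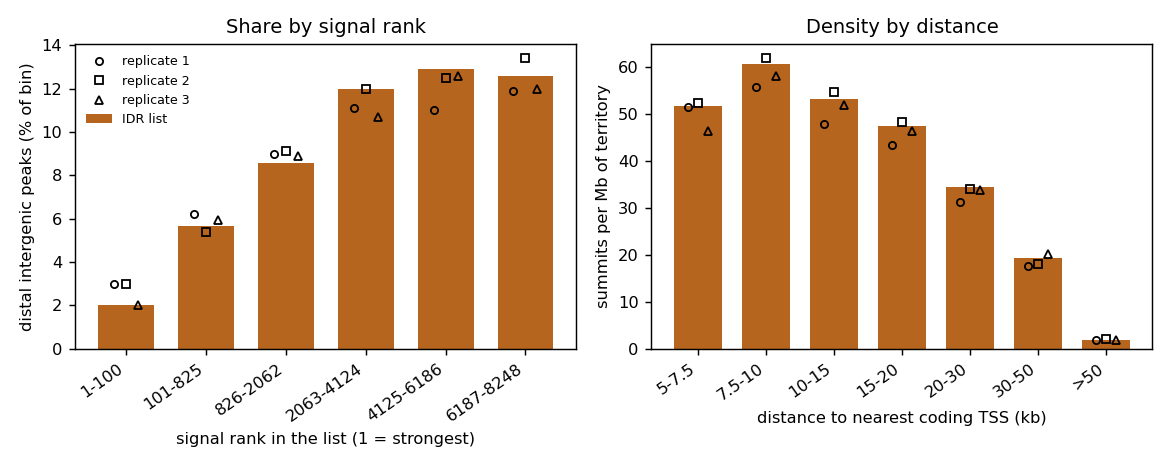
Left, members as a percentage of the peaks in bins of signal rank, from the strongest to the weakest. Right, members per Mb of genome that meets the rule, by distance from the nearest coding TSS in kb. Bars are the IDR list and points the 3 replicates. The share of members rises from 2% in the strongest bin to 12% to 12.9% in the later bins. The density is 51.7 per Mb in the nearest bin, is highest at 60.6 in the following bin and falls to 1.77 in the farthest.

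The strongest member stood well apart from the rest. It lay 11923 bp downstream of the TSS of CG13323, in the interval between this gene and the Polycomb group gene Su(z)2, at chr2R:13035110-13035544, with a signal of 3331 and rank 3. It ranked 2, 2 and 3 in the replicates. The second was near Paics, an enzyme of purine synthesis, at chrX:12754311-12754700 inside a lncRNA gene (signal 1379.7, ranks 90, 60 and 82). The next had signals of 1089 near the lysosomal sulfatase gene Ids, in the interval shared with the receptor tyrosine kinase inhibitor sty, and of 1041 near CheA75a. Their ranks in replicates 1, 2 and 3 were 168, 87 and 215 for Ids and 238, 121 and 186 for CheA75a. The remaining 6 of the 10 strongest members found in all 3 replicates had signals of 851 to 918 and were nearest to heca, CG13898, pxb, CG7320, the odorant-binding protein gene Obp56h and the Toll receptor gene Tollo.

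Members were thinly spread over the genome open to them. The stretches that meet the rule made up 25.3 Mb, or 18.9% of the 134 Mb of the 6 arms, and held 36.4 members per Mb, against 67.5 other IDR peaks per Mb of the rest (ratio 0.54). The ratio was 0.5, 0.549 and 0.514 in the replicates (two-sided exact sign-flip permutation p = 0.25 on the log2 scale). Annotated transposable elements covered 13.2% of those stretches and held 0 members, which allows a share of up to 0.325%, taken as 3 counts of 922. How reads from repeats were mapped is not given in the sources. Bodies of non-coding RNA genes covered 5.36% and held 90 members (9.76%, interval 7.92% to 11.9%), with 10.2%, 10.6% and 9.41% in the replicates. Members lay upstream of their nearest coding TSS in 52.8% of cases, against 53.6% of the bases that meet the rule.

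The density fell with distance from genes beyond 10000 bp. It was 51.7 members per Mb at 5000 to 7500 bp from a coding TSS, 60.6 at 7500 to 10000 bp and 53.2 at 10000 to 15000 bp, then 47.5 to 20000 bp, 34.4 to 30000 bp, 19.4 to 50000 bp and 1.77 beyond. The replicates gave 1.95, 2.12 and 1.77 per Mb beyond 50000 bp. Intergenic intervals over 100 kb held few members: of 37 such intervals 4 held any, and the others held 7.35 Mb of the stretches that meet the rule. Without these 37 intervals the members reached 51.1 per Mb and a ratio of 0.756. On 3L, the arm with the most members (320), the ratio then became 1.01 (0.943, 1.02 and 0.994 in the replicates), so that members were no longer sparser than other peaks there. This setting was chosen after seeing the data. The member farthest from a coding TSS lay 68611 bp from CG12362. Its rank was 7716 in the IDR list and 7498 and 8218 in replicates 1 and 2, and it was not found in replicate 3.

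The X chromosome held fewer members than the large autosomal arms. There were 80 members on X, or 19.9 per Mb of stretches that meet the rule. The autosomal arms 3L, 2L and 3R held 47.9, 46.8 and 39.8 per Mb, and 2R held 23.5. Arm 4 held 3. X over the 4 large autosomal arms was 0.5, and 0.496, 0.553 and 0.475 in the replicates (0.508 ± 0.0404, SD, n = 3; two-sided exact sign-flip permutation p = 0.25 on the log2 scale). Other IDR peaks were not sparser on X, with a ratio of 1.12, and 1.02, 1.25 and 1.04 in the replicates. Without intervals over 100 kb the ratio for members was 0.561. 2R was about as low as X until those intervals were left out, when it held 38.9 per Mb and X 30.8. Males and females were pooled in every replicate. Outward elements were in 26.2% of the members on X (17% to 37.3%) and 18.1% of those elsewhere (15.5% to 20.8%), with overlapping intervals.

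**Figure D4:**
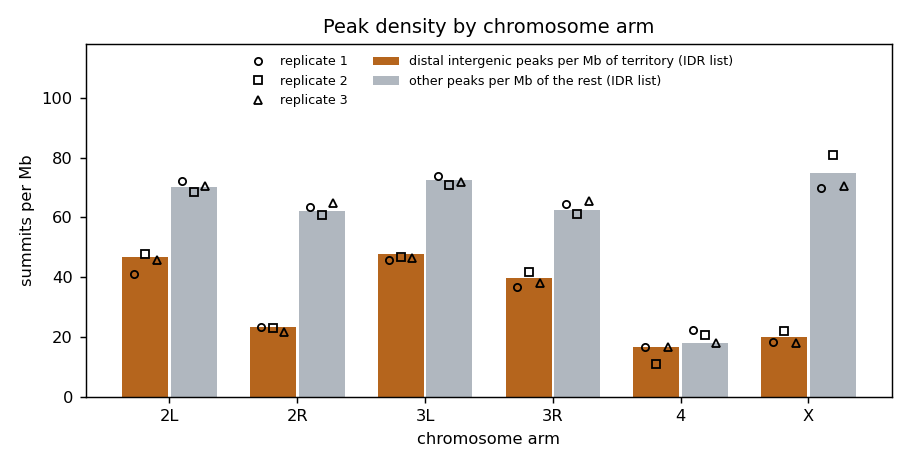
Summits per Mb on each chromosome arm: members over the stretches that meet the rule (brown) and other IDR peaks over the rest (grey). Bars are the IDR list and points the 3 replicates. On X the members stand at 19.9 per Mb while the other peaks stand at 74.8.

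Intergenic intervals differed in how many members they held. Of 1453 with room for one, 311 held a member and 139 of these held 1, while 69 intervals with 5 or more held 516 members (56%). The median gap to the nearest other IDR summit was 1939 bp for members and 2058 bp for other peaks, so members were spaced about as the other peaks were. How many an interval of a given length would hold was not tested. The 4 fullest intervals were all on 3L. Between hng3 and CG13898 there were 19 members over 47.9 kb (18, 18 and 17 in the replicates), with signals of 94.9 to 897. Between the cell adhesion gene NijA and CG43245 there were 19 over 75 kb (17, 20 and 19), with signals up to 716. Aps to CG14147 held 16 (13, 15 and 14), with signals up to 386, and Or67d to CG12362 held 15 (16, 13 and 15) over 138 kb, with signals up to 705. Of these 4, NijA to CG43245 had the highest median signal, 223.

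**Figure D5:**
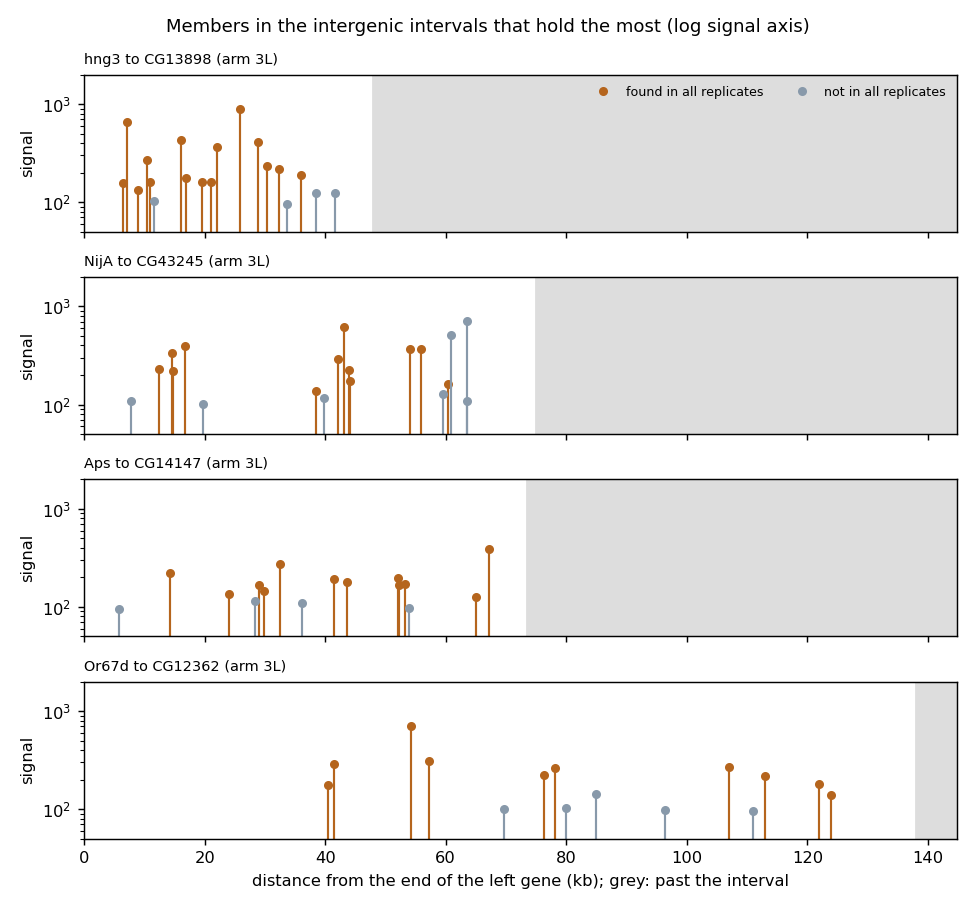
Members in the 4 intergenic intervals that hold the most, by distance from the end of the left gene in kb, with the signal of the IDR list on a log axis. Brown stems were found in all 3 replicates, grey stems were not, and grey shading lies past the interval. hng3 to CG13898 and NijA to CG43245 hold 19 each.

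The region of the cell death genes held members of high and low signal. hid, grim, rpr and skl encode antagonists of the inhibitor of apoptosis and lie together on 3L, where steroid-triggered death of larval tissue in the pupa depends on some of them. Between the outer ends of hid and skl, chr3L:18167745-18439942 (272 kb), 23 of 29 IDR summits were members, against 11.2% over the whole list, with signals of 94.6 to 1041. Of the 272 kb, 188 kb meet the rule by their distance from genes, so the rule itself makes many summits there members. The replicates held 24, 26 and 27 members there. The CheA75a and CG7320 members above lie in this region, and so does one 5030 bp upstream of hid with signal 817 and ranks 398, 279 and 298. The region was singled out after its values were seen.

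Genes of developmental regulators were nearest to members more often than to the stretches that meet the rule. The list of homeodomain, POU and LIM factors (88 genes, which also holds D, Sox21b and SoxN) was nearest to 51 members (5.53%, replicates 5.78% ± 0.387, SD, n = 3). It was nearest to 3.62% of those stretches, or 4.07% without annotated transposable elements, and to 1.11% of other peaks. The list of other patterning transcription factors (58 genes) was nearest to 49 members (5.31%, replicates 5.65% ± 0.278). It was nearest to 2.04% of the stretches, or 2.32% without annotated transposable elements, and to 0.915% of other peaks. The stretches nearest to these lists held 55.7 and 94.9 members per Mb. All stretches held 36.4, or 51.1 without intervals over 100 kb, which were kept for the lists. The first list was close to the latter value, so its excess depends on the baseline. The strongest in the first list were near pdm3, a POU factor of olfactory neurons (signal 623, ranks 648 and 701 in replicates 2 and 3 and not found in replicate 1), near the Hox gene Antp (436, not found in replicate 3) and near Dr (367). In the second they were near the limb patterning gene bab1 (411, not found in replicate 2), the zinc finger gene odd (379) and the T-box gene H15 (340.2). No test was made of these shares, because genes and peaks are not replicates.

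The lists closest to the known work of acj6 were not richer in members than in space. Axon guidance and synaptic recognition genes were nearest to 15 members (1.63%, replicates 1.56% ± 0.225) and to 2.21% of the stretches, and the strongest were 2 near the Toll receptor gene 18w (425 and 377) and 1 near caps (247, not found in replicate 1). Olfactory, gustatory and ionotropic receptor genes were nearest to 11 members (1.19%, replicates 1.16% ± 0.132) and to 1.33% of the stretches. Of these, 2 of the strongest 3 (705 and 310.2) lay 55649 and 58701 bp from the pheromone receptor gene Or67d, and the other was near the gustatory receptor gene Gr93b (459). The member closest to the body of an odorant receptor gene lay 11889 bp from Or65a (signal 154, ranks 5102, 4748 and 5982). The next lay 13999 bp from Or24a (signal 135, not found in replicate 1). The member closest to acj6 itself was 90148 bp from the gene, near CG9106, with rank 7970 and no region among the strongest of any replicate.

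Ecdysone response genes, which answer the steroid pulse that starts metamorphosis, were nearest to 12 members (1.3% ± 0.174 over the replicates) against 0.6% of the stretches and 1.5% of other peaks. These members were nearest to only 4 genes, of the 12 in the list that were nearest to any of the stretches. The strongest were the hid member above and 2 upstream of Eip93F, a factor needed for the death of larval tissue, at 11812 and 7531 bp with signals of 652 and 638. Cuticle protein genes were nearest to 2 members, both near Cpr51A, and cytoplasmic ribosomal protein genes to 2, both near RpL10Aa (0.217% against 1.1% of the stretches). Neuropeptides and their receptors were nearest to 0 members, which allows a share of up to 0.325% taken as 3 counts of 922 (upper end of the exact binomial 95% interval 0.399%), against 0.68% of the stretches.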

How the data were processed

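Peak lists of 3 replicates were analysed. Per the labels, reads were aligned to dm6. The sources used here give no aligner, caller, versions or IDR threshold, and the control experiment was not analysed here. The authors deposited 30000 regions for each replicate and for the pooled replicates, with the caller's signal value, which is not scaled between lists and ranked peaks within a list. No use was made of the −log10 q values that the authors deposited, because they are capped. Per the deposited text files, all replicates share 1 control. Without counts, depth is unknown. P-values measure the spread between these samples, which may be technical. For sequence and position this spread is also narrowed by the regions that the replicate lists share.

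Summits were kept as deposited, including 1 member summit outside its interval and 2 members with a repeated interval, and set against Ensembl's Release 6 annotation (13945 coding genes) and RefSeq sequence. The space open to members was counted base by base. Windows reached 100 bp to each side, with flanks 1000 bp away. The members, 8 gene lists and 19 motifs were chosen with earlier results of these data known. Named were the 10 strongest members found in all replicates, the farthest from a TSS, those at the 5000 bp limit, the 5 fullest intervals (1 of them, with its member, is not reported here), the 3 strongest of each list, those nearest to acj6 and odorant receptor genes, and the 5 highest and 3 lowest 6-mers. Replicate differences were tested with the two-sided exact sign-flip permutation test. The functions were tested on simulated peaks. Python 3.11.15, numpy 2.4.6, pandas 2.3.3, scipy 1.17.1, statsmodels 0.14.6 and matplotlib 3.10.9 were used.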

Additional observations from a re-analysis of the deposited data

How the results depend on the processing

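The share of members was 16.5% with a TSS distance over 2000 bp and 6.2% over 10000 bp. It was 11.9% with non-coding RNA genes ignored, 10.1% outside their bodies and 9.63% in the stronger part of the list, and 10.6% to 11% when a replicate was left out. The density ratio was 0.601 and 0.428 at the same TSS distances, 0.587 without the stretches beyond the outermost genes and gaps, and 0.507 to 0.531 when a replicate was left out. Settings added after seeing the data gave 0.603 without transposable elements and gaps, 0.756 without intervals over 100 kb, and an X ratio of 0.561 without those intervals. Members found in all replicates numbered 423 with an overlap of 80% and 890.0 over all regions. The GC difference between members and other peaks turned to 0.0919 points in replicate 2 alone. Of 108 settings over 18 motifs, 5 turned the direction. GATAAG, 0.434 points above the flank in the IDR list, turned to -1.25 over the replicate lists (-1.6 to -0.791 when a replicate was left out), and AGGTCA turned to -0.108 with the left flank. The causes were not tested. With either bordering gene in place of the nearest, the homeodomain list held 8.89% of members and the patterning list 7.92%. The remaining values of the design kept their direction. No paired analysis was possible because there is only 1 group. With 3 replicates no difference could pass the threshold, and depth is unknown.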

Other observations

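Regions below the IDR list, which the comparisons above do not use, lay in distal intergenic sequence more often than the IDR peaks. Of the list from pooled replicates, ranks 8249 to 15000 held 14.9% such summits, ranks 15001 to 20000 held 16.2% and ranks 20001 to 30000 held 17%, against 11.2% of the IDR list. The genome that meets the rule is 18.9% of the arms. These regions include background per the labels, and no test was made.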
